A study of Mus musculus with 9 samples.

Results

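The miR-17-92 cluster was examined in exosomal miRNA libraries from mouse renal tubular epithelial cells. Its members were taken by name, as the mature arms of miR-17, miR-18a, miR-19a, miR-20a, miR-19b and miR-92a listed for the cluster, and 8 of the 1978 miRNAs of the deposited table met this rule. All 8 passed the filter on low counts.

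TCMK-1, an established renal tubular epithelial line from a C3H mouse, was infected with lentivirus at a multiplicity of infection of 100, and exosomes were taken from the medium of 3 groups with 3 libraries each. The LV-NC group carried the empty vector and was kept in normal culture. The H/R-LV-NC group carried the same empty vector and went through hypoxia-reoxygenation (H/R), that is, 24 h of hypoxia (1% O2) followed by reoxygenation (21% O2) for 12 h, in medium freed of exosomes. The H/R-LV-BMAL1 group went through the same H/R after infection with a vector that expresses BMAL1, a core transcriptional activator of the circadian clock, with a Flag tag from the CMV promoter. Both vectors also carried EGFP and puromycin resistance. No group combined the BMAL1 vector with normal culture, so BMAL1 was compared under H/R only. Below, "after H/R" stands for H/R-LV-NC and "after H/R with BMAL1" for H/R-LV-BMAL1. The mRNA of BMAL1 is not measured by miRNA libraries and did not serve as a check of the labels. Whether each library stands for its own culture is not stated in the labels, so the p-values measure the spread between these libraries, which may be technical. In exosomal RNA, a member packed less per vesicle cannot be told apart from fewer vesicles that carry it.

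The cluster is transcribed as 1 long primary RNA from the host gene Mir17hg, is driven by Myc and E2F factors in proliferating cells, and is cut into separate hairpins whose arms then live or decay on their own. Its products promote growth and survival, it is required in nephron progenitors for normal kidney development, and it promotes cyst growth in mouse models of polycystic kidney disease. The arms fall into the miR-17, miR-18, miR-19 and miR-92 families, which recognise different targets through the seed.

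The mature sequences are shown because the seed sorts the members into families and because the near-identical pairs and the base composition bear on the counts described here. The sequences come from RefSeq on GRCm38.p6, are written from the 5′ end, and have the seed (bases 2 to 8) in capitals. The first pair shares a seed, as does the miR-19 pair.
mmu-miR-17-5p: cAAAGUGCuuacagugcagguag
mmu-miR-20a-5p: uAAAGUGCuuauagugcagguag
mmu-miR-18a-5p: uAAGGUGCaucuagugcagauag
mmu-miR-19a-3p: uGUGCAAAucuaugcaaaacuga
mmu-miR-19b-3p: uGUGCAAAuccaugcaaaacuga
mmu-miR-92a-3p: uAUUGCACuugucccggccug
mmu-miR-17-3p: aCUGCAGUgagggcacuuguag
mmu-miR-18a-3p: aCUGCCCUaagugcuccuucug
miR-17-5p and miR-20a-5p differ by C1U and C12U, and miR-19a-3p and miR-19b-3p by U11C alone, with positions counted from the 5′ end. In GRCm38, the 8 mature arms lie between positions 115043684 and 115044496 of the forward strand of chromosome 14, in 6 hairpins within a span of 813 bases. All 6 hairpins sit in exon 2 of the long non-coding RNA Mir17hg, which runs from 115043271 to 115046727. Identical copies of miR-19b-3p and miR-92a-3p are also encoded on chromosome X, by Mir19b-2 and Mir92-2, so their counts cannot be credited to 1 locus. The sources used here do not give how reads that match several near-identical miRNAs were assigned, so the split between miR-17-5p and miR-20a-5p and between the miR-19 members is uncertain to that extent.

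Unique molecular identifiers (UMIs) counted each captured molecule once. The libraries held 977490 to 1147768 UMIs in LV-NC, 807158 to 1447040 after H/R and 3357851 to 4057046 after H/R with BMAL1, so the last group was the deepest and did not overlap the others. The TMM factors, which rescale libraries so that the typical miRNA is level, were 1.03 to 1.07 in LV-NC, 1.05 to 1.72 after H/R and 0.558 to 0.94 after H/R with BMAL1, and they also separated the BMAL1 group from the others. H/R-LV-NC 2 had the highest factor and H/R-LV-BMAL1 3 the lowest. Of 11 kidney tubule markers, 11 had a UMI in every library, and their summed level was 8695 to 12582 CPM (UMIs scaled to a common library total) in LV-NC, 10134 to 10618 after H/R and 14593 to 16397 after H/R with BMAL1, led by miR-30a-5p. Arms of the miR-30 family made up most of the kidney tubule sum, with miR-30a-5p at a mean of 6712 CPM in LV-NC. In that group miR-141-3p, miR-200a-3p, miR-200b-3p, miR-200c-3p, miR-204-5p and miR-429-3p had means of only 2.81 to 10.7 CPM. Each library had a UMI for 1939 to 1977 of the 1978 miRNAs, so having a UMI does not set a marker apart. Markers of other tissues were not at 0. The 7 blood cell markers, led by miR-486a-5p, summed to 393 to 494, 433 to 545 and 229 to 266 CPM in the same order, and 6 of them had a UMI in every library. The 2 neuronal markers, led by miR-9-5p, summed to 11.3 to 19.2, 16.4 to 338 and 151 to 2720 CPM. The 3 muscle markers summed to 2405 to 3197 CPM in all 9 libraries, with a UMI for 2 of them in every library. Nearly all of this was miR-206-3p, at 2385 to 3171 CPM, while miR-1a-3p and miR-133a-3p had group means of only 1.65 to 16.0 CPM. The liver miRNA miR-122-5p was at 54.5 to 176 CPM. The part of depth, of the TMM factors and of these markers in the results on the cluster was not tested.

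miR-92a-3p was the most abundant member in every library and ranked between 19 and 36 among all miRNAs. Of each library's UMIs, the 8 members together made up 0.88 to 1.02% in LV-NC, 0.744 to 0.916% after H/R and 0.622 to 0.772% after H/R with BMAL1. In LV-NC, the mean levels fell in the order miR-92a-3p (7322 ± 429 CPM, SD, n = 3), miR-20a-5p (1020 ± 121), miR-19b-3p (444 ± 107), miR-17-5p (297 ± 48.4), miR-18a-5p (195 ± 37.9), miR-17-3p (123 ± 22.4), miR-19a-3p (120 ± 23.1) and miR-18a-3p (48.7 ± 8.27). Neighbours in this order did not overlap, except miR-17-3p and miR-19a-3p. The order was the same in H/R-LV-NC, again with an overlap of that pair alone. In H/R-LV-BMAL1, miR-19a-3p at 153 ± 20.5 CPM lay above miR-17-3p at 108 ± 11.4 CPM with no overlap, and the other places were as before. One UMI is 1 molecule whatever its length, but capture by ligation differs between sequences, so these are levels of UMIs and not molar amounts.

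**Figure D1:**
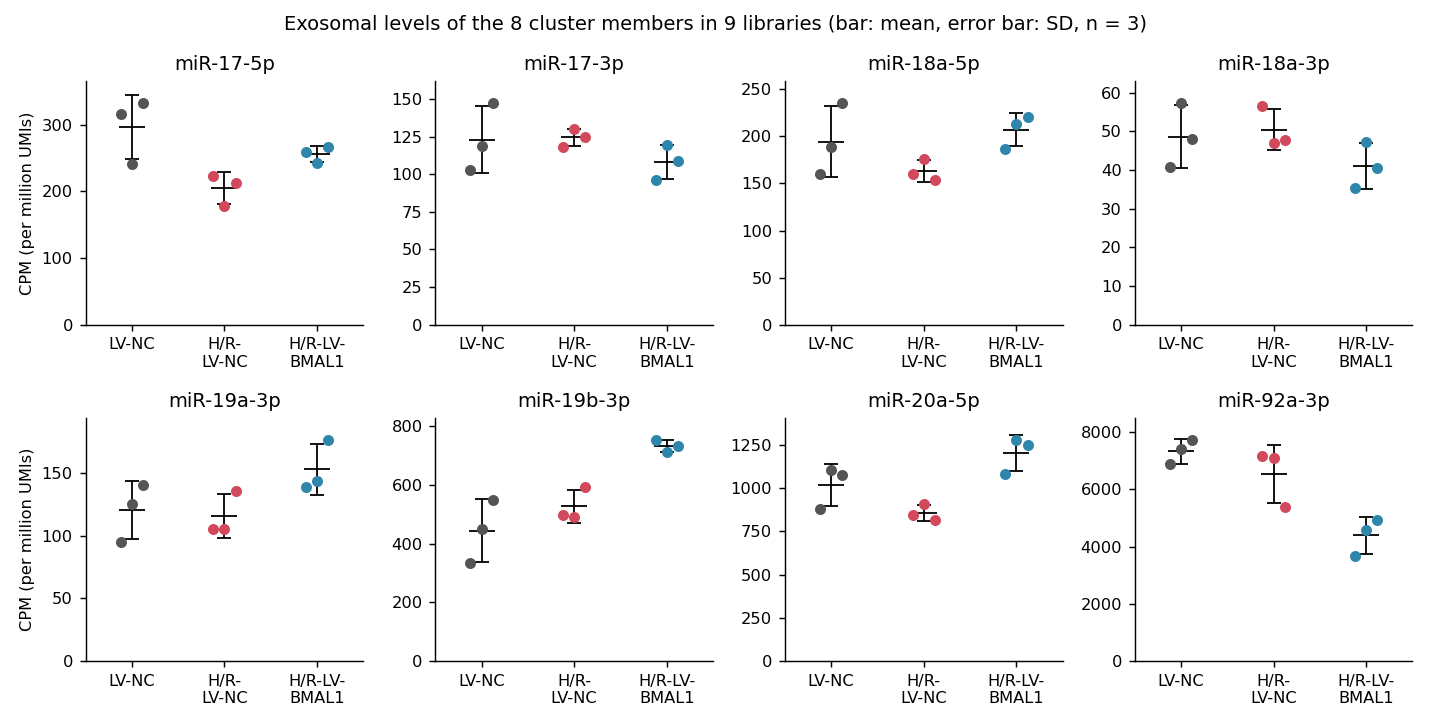
Level of each member in CPM (UMIs scaled to a common library total, linear axis from 0) in the 3 libraries of each group. Points are libraries, the horizontal bar is the mean and the error bar the SD. The 3 BMAL1 libraries of miR-92a-3p lie below the other 6, and those of miR-19b-3p and miR-20a-5p above the 3 libraries after H/R without BMAL1.

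The first question was whether H/R with the control virus moved the cluster in exosomes. None of the 8 members was called, that is, none had an adjusted p under 0.05 in edgeR's quasi-likelihood test with Benjamini-Hochberg adjustment over the 1682 miRNAs tested. Over all miRNAs the share called was 0%, with 121 of them (7.19%) at an unadjusted p under 0.05, and 1 (0.0595%) called with total UMIs and 2 with DESeq2. The median log2 fold change was -0.41 over the members, 0.0075 over all miRNAs tested and -0.24 over the 286 miRNAs with a mean of at least 100 CPM. With libraries scaled to total UMIs instead of TMM these medians were -0.11, 0.36 and 0.064, a shift of the whole table.

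Among the miR-17 family, which represses the cell cycle inhibitor Cdkn1a and the TGF-beta receptor Tgfbr2, miR-17-5p had the most negative estimate. It was at 316, 241 and 332 CPM in LV-NC, 223, 178 and 212 CPM after H/R and 258, 242 and 266 CPM after H/R with BMAL1. The libraries after H/R were all below those of LV-NC. Its log2 fold change under H/R was -0.81 (SE 0.353), with an unadjusted p of 0.0424 and an adjusted p of 0.645 in edgeR's quasi-likelihood test, so it was not called. On the TMM scale, the H/R-LV-NC libraries lay below all LV-NC libraries for 3 members, miR-17-5p, miR-18a-5p and miR-20a-5p, against 6.36% of all miRNAs tested. With total UMIs only miR-17-5p did so, against 1.49% of all miRNAs. The other estimates ran from -0.56 for miR-18a-5p and miR-20a-5p to -0.048 for miR-19b-3p, with miR-92a-3p at -0.47, and those of miR-17-3p, miR-18a-3p and miR-19b-3p were above 0 with total UMIs (0.018, 0.054 and 0.24).

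The next question was whether BMAL1 under H/R moved the cluster. With BMAL1, miR-20a-5p was higher than in H/R-LV-NC, and it was the only member called by edgeR's quasi-likelihood test with TMM. That is 1 of 8 members, where 2.38% of all miRNAs tested were called, 2.14% higher and 0.238% lower. The unadjusted p was under 0.05 for 5 of the 8, as it was for 27.8% of all miRNAs. The alternative tools called more of them higher: DESeq2 called miR-17-5p (adjusted p 0.013), miR-18a-5p (0.0048), miR-19a-3p (0.0085) and miR-19b-3p (0.0019) besides miR-20a-5p, and limma-voom called miR-19b-3p (0.0424) besides miR-20a-5p, as did edgeR when the mean had to reach 50 UMIs (0.0495). Without H/R-LV-BMAL1 1, edgeR called the same 5 members as DESeq2. Each of these settings also called more miRNAs over the whole table than the main fit did. The main fit called 40 and the fit without H/R-LV-BMAL1 1 called 139, and the counts for the other settings are given at the end. With total UMIs 2 members were called, miR-20a-5p higher and miR-92a-3p lower, where 30.9% of all miRNAs were called, 2.26% higher and 28.6% lower. The members' estimates were all above 0 on the TMM scale, with a median log2 fold change of 1.19 against -0.043 over all miRNAs tested and 0.72 over the 286 miRNAs with a mean of at least 100 CPM. With total UMIs the medians were 0.33, -0.87 and -0.13, so both scales placed the typical member above the typical miRNA, but only TMM placed all 8 above 0. The H/R-LV-BMAL1 libraries lay above every H/R-LV-NC library for 5 members on either scale, against 14.7% of miRNAs with TMM and 4.76% with total UMIs. Here and in the other comparisons such shares are over all 1682 miRNAs tested. They were not taken over the 286 with a mean of at least 100 CPM, whose median was higher here on both scales.

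miR-20a-5p, the other miR-17 family member of the cluster, was at 880, 1102 and 1077 CPM in LV-NC, 845, 907 and 813 CPM after H/R and 1082, 1278 and 1246 CPM after H/R with BMAL1. The BMAL1 libraries stood above all H/R-LV-NC libraries but overlapped LV-NC. Its log2 fold change against H/R-LV-NC was 1.37 (SE 0.309) with TMM, with an adjusted p of 0.0455 in edgeR's quasi-likelihood test, and 0.49 (adjusted p 0.0323) with total UMIs. The direction held under all alternatives tried, with log2 fold changes of 1.08 to 1.58 with a library left out, and of 0.44 to 0.56 with a library left out and total UMIs. The call did not hold: leaving out any library other than H/R-LV-BMAL1 1 gave an adjusted p of 0.053 to 0.138 in edgeR's test with TMM, while leaving that one out gave 0.0117. It was also lost with RLE (0.0598), upper quartiles (0.101), no filter (0.0554), the replicate block (0.102) and only the groups compared (0.14). With total UMIs it was lost without any 1 of the H/R-LV-NC libraries, H/R-LV-BMAL1 2 or H/R-LV-BMAL1 3 (adjusted p 0.0607 to 0.108).

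Its near-identical relative miR-17-5p had a log2 fold change of 1.15 against H/R-LV-NC with TMM and an adjusted p of 0.0825 in edgeR's quasi-likelihood test, and 0.32 (adjusted p 0.238) with total UMIs. The ratio of miR-20a-5p to miR-17-5p overlapped between the groups in all 3 comparisons. miR-18a-5p, of a family that represses Ctgf and Smad family members, was at 160, 188 and 235 CPM in LV-NC, 160, 176 and 153 CPM after H/R and 187, 213 and 221 CPM after H/R with BMAL1. Every BMAL1 library lay above every H/R-LV-NC library. The log2 fold change was 1.23 with TMM (adjusted p 0.0711 in edgeR's quasi-likelihood test) and 0.34 with total UMIs.

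The miR-19 members, the arms of the cluster that drive much of its growth-promoting effect in mouse B cells, were both above 1 on the log2 scale, and miR-19b-3p had the next smallest adjusted p after miR-20a-5p. miR-19b-3p was at 335, 448 and 549 CPM in LV-NC, 496, 489 and 592 CPM after H/R and 752, 711 and 731 CPM after H/R with BMAL1. The 3 BMAL1 libraries were above all 6 others and close to each other. Against H/R-LV-NC the log2 fold change was 1.32 with TMM (SE 0.328, adjusted p 0.0603 in edgeR's quasi-likelihood test) and 0.47 with total UMIs (adjusted p 0.0917). miR-19a-3p was at 94.9, 125 and 140 CPM in LV-NC, 105, 105 and 135 CPM after H/R and 138, 143 and 176 CPM after H/R with BMAL1. Its BMAL1 libraries lay just above H/R-LV-NC, with a log2 fold change of 1.28 (adjusted p 0.076 in edgeR's quasi-likelihood test) with TMM and 0.40 with total UMIs.

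miR-92a-3p, known in endothelial cells for repression of Klf2 and of the integrin Itga5, had the smallest TMM estimate of the 8. It was at 6866, 7384 and 7716 CPM in LV-NC, 7154, 7074 and 5363 CPM after H/R and 3672, 4566 and 4930 CPM after H/R with BMAL1. All BMAL1 libraries lay below all 6 others on this scale, as they lay below those after H/R alone for 44.2% of all miRNAs and below LV-NC for 29.8%. With TMM the log2 fold change against H/R-LV-NC was 0.32 (adjusted p 0.559 in edgeR's quasi-likelihood test), while with total UMIs it was -0.57 and miR-92a-3p was called lower (adjusted p 0.0228 in edgeR's test). That call was lost without H/R-LV-NC 2, H/R-LV-BMAL1 2 or H/R-LV-BMAL1 3 (adjusted p 0.0763, 0.0659 and 0.0546). Its sign thus depends on the scaling, and the ratios within a library, which no scaling can change, are given further on.

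The minor arms, which are less often loaded onto Argonaute proteins, sat between these. miR-17-3p was at 103, 119 and 147 CPM in LV-NC, 118, 130 and 125 CPM after H/R and 96.5, 119 and 109 CPM after H/R with BMAL1. miR-18a-3p was at 40.8, 57.3 and 47.9 CPM, then 56.6, 47.1 and 47.7 CPM, then 35.4, 47.1 and 40.4 CPM in the same order of groups. Both overlapped between the H/R groups. Their log2 fold changes with BMAL1 were 0.67 and 0.54 with TMM and -0.20 and -0.30 with total UMIs, and neither was called on either scale.

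**Figure D2:**
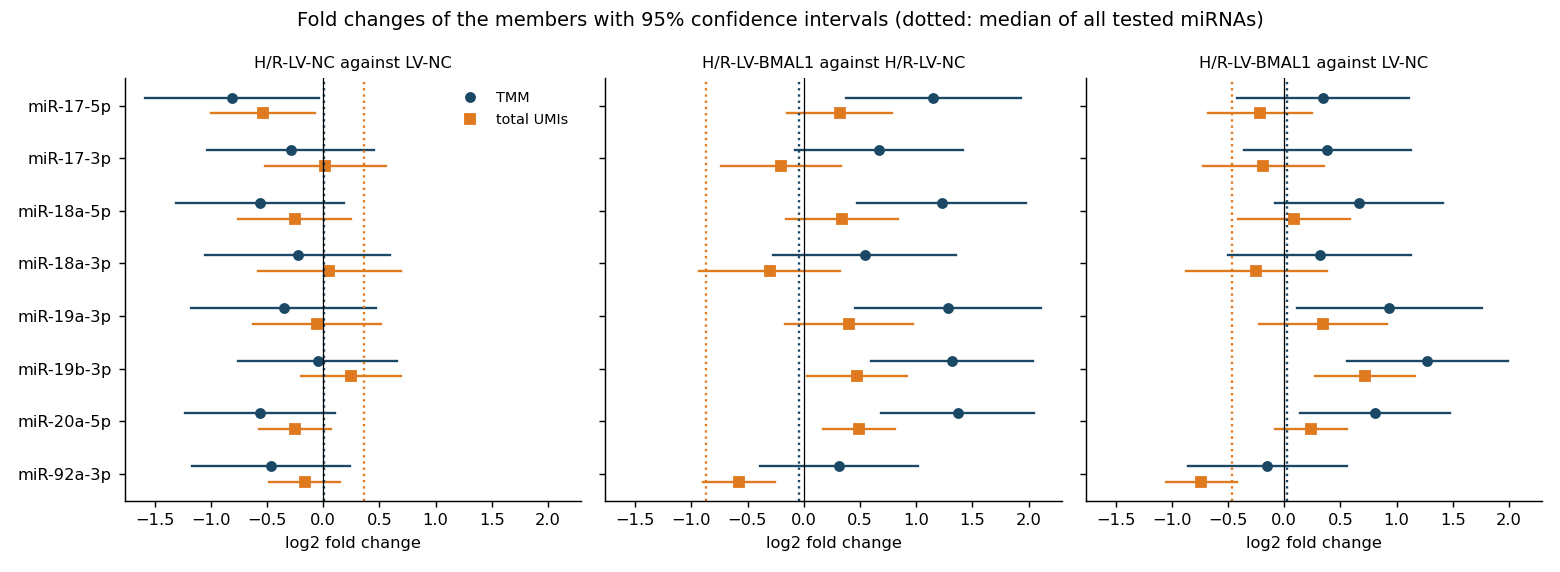
Log2 fold change of the 8 members in the 3 comparisons (horizontal axis), with TMM (circles) and with total UMIs (squares). Horizontal lines are 95% confidence intervals and dotted lines the median of all miRNAs tested on each scale. In the BMAL1 comparison, the 8 circles run from 0.32 for miR-92a-3p to 1.37 for miR-20a-5p, and the squares of miR-17-3p, miR-18a-3p and miR-92a-3p are below 0.

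H/R-LV-BMAL1 was also set against LV-NC, which differs from it in both H/R and BMAL1. None of the 8 members was called, where 0.238% of all miRNAs were, 0.178% higher and 0.0595% lower. The unadjusted p was under 0.05 for 3 of the members, miR-19a-3p, miR-19b-3p and miR-20a-5p, as it was for 23.4% of all miRNAs. DESeq2 called 1 member, miR-19b-3p, and 145 miRNAs over the whole table. miR-19b-3p came closest, with a log2 fold change of 1.27 (SE 0.327) and an adjusted p of 0.0718 in edgeR's quasi-likelihood test, and 0.72 (adjusted p 0.0618) with total UMIs. The estimates of miR-19a-3p and miR-20a-5p were 0.93 and 0.81 with TMM, with adjusted p of 0.174 and 0.161 in edgeR's test, and 0.35 and 0.24 with total UMIs. For those 3 members the H/R-LV-BMAL1 libraries lay above all LV-NC libraries on the TMM scale, against 14.1% of all miRNAs, and for miR-19b-3p alone with total UMIs, against 6.18%. miR-92a-3p was at -0.15 with TMM and -0.74 with total UMIs, where it was called lower (adjusted p 0.0209 in edgeR's test). On that scale 6.24% of all miRNAs were called, 4.58% lower and 1.66% higher. That call was lost without any 1 of the LV-NC libraries or H/R-LV-BMAL1 2, with adjusted p of 0.0535 to 0.0714. Each group serves in more than 1 comparison, so the estimates are not independent of each other.

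Ratios of members within a library were then compared, since a factor shared by a whole library cancels in them. A difference between libraries in how sequences are captured does not cancel, and its part was not tested. An exact two-sided permutation test over the 20 arrangements of 6 libraries was used, and with 3 against 3 it cannot give a p below 0.1. Over the 15 tests (5 ratios in 3 comparisons), a p of 0.1 became 0.214 after Benjamini-Hochberg adjustment, so no ratio could pass a threshold of 0.05. Ratios of other miRNAs were not compared, so the share of them that would separate the groups is not known. Of single miRNAs, 29.5% did not overlap between the H/R groups with TMM and 49.0% with total UMIs.

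Among the 5 ratios, the widest separation was that of miR-92a-3p from the sum of the other 7 members. That sum was mostly miR-20a-5p and miR-19b-3p. The minor arms miR-17-3p and miR-18a-3p lay nearer to miR-92a-3p in the BMAL1 comparison, with TMM log2 fold changes of 0.67 and 0.54 against 0.32. There were 3.56, 3.24 and 3.05 UMIs of miR-92a-3p for each UMI of the other 7 members in LV-NC, 3.57, 3.48 and 2.58 after H/R and 1.44, 1.66 and 1.77 after H/R with BMAL1. The 3 BMAL1 libraries were below all 6 others. The ratio was 0.509 of that in H/R-LV-NC (log2 difference -0.97, exact permutation p = 0.1) and 0.493 of that in LV-NC (log2 difference -1.02, exact permutation p = 0.1). With any library left out the log2 difference stayed between -1.12 and -0.89 in the first and between -1.08 and -0.94 in the second. Between LV-NC and H/R with the control virus the groups overlapped (log2 difference -0.045, exact permutation p = 0.9). In shares of the cluster's UMIs, miR-92a-3p took 76.6 ± 1.38% in LV-NC, 76.0 ± 3.37% after H/R and 61.8 ± 2.48% after H/R with BMAL1 (SD, n = 3). The share of miR-20a-5p was 10.6, 10.0 and 17.0% and that of miR-19b-3p 4.60, 6.25 and 10.4% in the same order. The summed level of all 8 members was 9568 ± 729, 8569 ± 977 and 7087 ± 775 CPM, while that of the 7 without miR-92a-3p was 2246 ± 301, 2039 ± 37.3 and 2697 ± 130 CPM.

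The balance of the arms of 1 hairpin was compared in the same way, and no difference could pass the threshold. miR-17-5p had 3.06, 2.03 and 2.25 UMIs for each UMI of miR-17-3p in LV-NC, 1.88, 1.37 and 1.69 after H/R and 2.67, 2.03 and 2.45 after H/R with BMAL1. The H/R-LV-NC libraries lay below all others, with a log2 difference of -0.56 from LV-NC, and H/R-LV-BMAL1 lay 0.53 above H/R-LV-NC (exact permutation p = 0.1 for each). H/R-LV-BMAL1 and LV-NC overlapped, with a log2 difference of -0.02 (exact permutation p = 0.9). For miR-18a the 5p to 3p ratio was 3.89, 3.27 and 4.87 in LV-NC, 2.82, 3.70 and 3.20 after H/R and 5.26, 4.52 and 5.45 after H/R with BMAL1. BMAL1 lay 0.65 above H/R-LV-NC on the log2 scale with no overlap (exact permutation p = 0.1), while H/R-LV-NC and LV-NC overlapped (log2 difference -0.30, exact permutation p = 0.2).

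Within the miR-19 pair, miR-19a-3p had 0.285, 0.279 and 0.256 UMIs for each UMI of miR-19b-3p in LV-NC, 0.212, 0.216 and 0.229 after H/R and 0.184, 0.202 and 0.241 after H/R with BMAL1. Both H/R groups lay below LV-NC, with log2 differences of -0.32 and -0.40 (exact permutation p = 0.1 for each), and overlapped each other (-0.08, exact permutation p = 0.5). Since miR-19b-3p can also come from chromosome X, this ratio holds molecules of more than 1 locus.

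**Figure D3:**
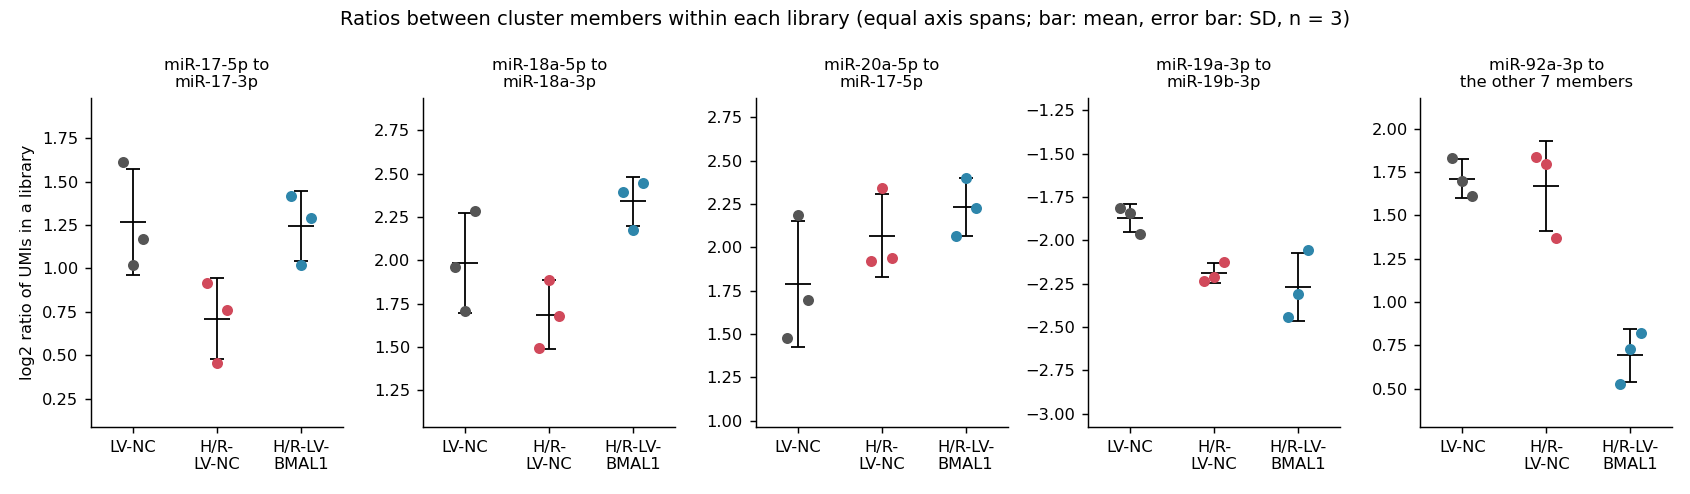
Log2 ratio of UMIs of members within each library, for 5 ratios, in the 3 groups; every panel spans the same range. Points are libraries, bars are means and error bars the SD. The ratio of miR-92a-3p to the other 7 members is lower in the 3 H/R-LV-BMAL1 libraries than in all others, and that of miR-17-5p to miR-17-3p is lowest in H/R-LV-NC.

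The members also differ in base composition, which the choice of members did not use. GC content was 57.1% in miR-92a-3p, 54.5% in miR-17-3p and miR-18a-3p, 47.8% in miR-17-5p, 43.5% in miR-18a-5p, 39.1% in miR-19b-3p and miR-20a-5p, and 34.8% in miR-19a-3p. In the BMAL1 comparison with TMM, the 3 members with at least 50% GC had log2 fold changes of 0.32 to 0.67 and the 5 below 50% had 1.15 to 1.37, so these sets did not overlap. Over the 8 members Pearson's r between GC content and log2 fold change was -0.93 with TMM and -0.92 with total UMIs, and it was -0.033 under H/R. These points share the same libraries, and 4 of the 5 members below 50% GC are nearly identical to another of them. The other arms and relatives described below did not all split in this way with TMM. miR-93-5p (52.2% GC) was at 1.20 and miR-25-3p (50% GC) at 0.98, while miR-20a-3p (40.9% GC) was at -0.19 and miR-32-5p (31.8% GC) at 0.44. Others went with the split, such as miR-106b-5p (42.9% GC) at 1.05 and miR-92b-3p (63.6% GC) at 0.25. Among the 252 miRNAs with a mean of at least 100 CPM and a sequence (of 286), r was -0.27 and the medians were 0.32 at 50% GC or more and 1.06 below it, while over the 1465 of 1682 tested miRNAs with a sequence it was -0.036. The part of base composition in the fold changes was not tested.

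**Figure D4:**
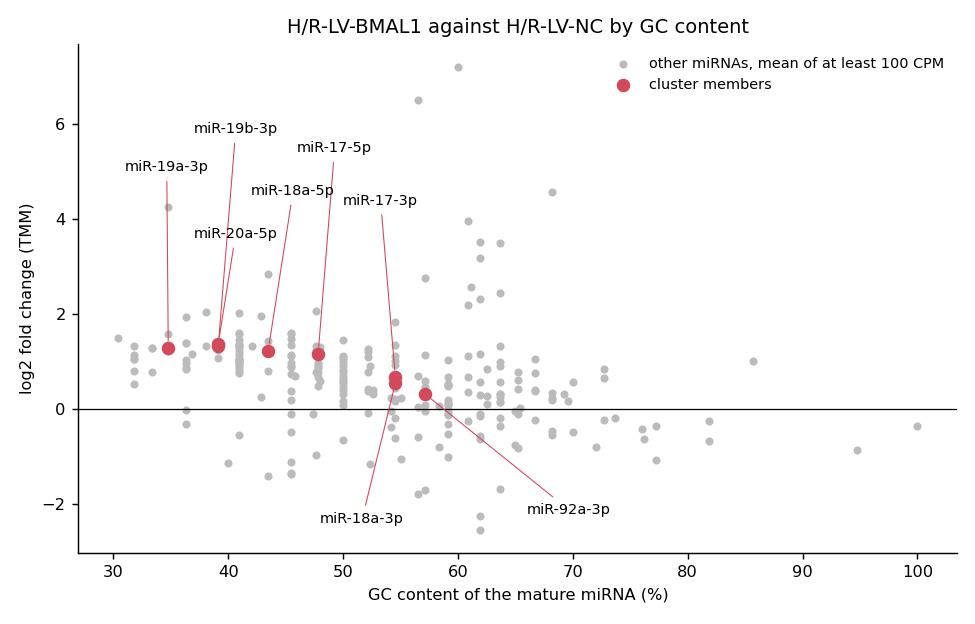
GC content of the mature miRNA in percent against the log2 fold change (TMM) of BMAL1 against the control virus, both after H/R. Large points are the 8 members, and small points the other miRNAs with a mean of at least 100 CPM that have a RefSeq sequence. The members lie between 0.32 for miR-92a-3p at 57.1% GC and 1.37 for miR-20a-5p at 39.1% GC, and miR-19a-3p, with the lowest GC content (34.8%), is at 1.28.

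Short sequence motifs that recruit RNA-binding proteins have been linked to the sorting of miRNAs into exosomes in human T cells, among them GGAG and CCCU. The letters GGAG, searched on the mature strand, were in none of the 8 members and in 14.2% of the 1679 deposited miRNAs with a RefSeq sequence. CCCU was in 1 member, miR-18a-3p, and in 11.4% of those miRNAs.

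The other arms of the cluster and its relatives were described for comparison. Of the 4 other arms, 3 were tested and 0 were called in any comparison with TMM; miR-19a-5p, with 1 to 17 UMIs, did not pass the filter. The most abundant of them, miR-92a-1-5p, is the partner of miR-92a-3p in the hairpin on chromosome 14 and had 102 to 468 UMIs in each library, against 14 to 44 for miR-92a-2-5p, the partner on chromosome X. miR-92a-1-5p was at 142 ± 13.1 CPM in LV-NC, 125 ± 16.6 CPM after H/R and 108 ± 12.4 CPM after H/R with BMAL1, with a log2 fold change with BMAL1 of 0.68 with TMM and -0.21 with total UMIs. miR-20a-3p, the partner of miR-20a-5p, was called lower with total UMIs (-1.08, adjusted p 0.032 in edgeR's test), as were 28.6% of all miRNAs, and had -0.19 with TMM.

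The paralogous miR-106b-25 cluster, in an intron of the replication factor gene Mcm7, holds relatives with the same seeds. All 6 of its arms were tested and 0 were called with TMM in any comparison, with a median log2 fold change with BMAL1 of 0.99 with TMM and 0.17 with total UMIs. miR-93-5p, with the seed of miR-17-5p and miR-20a-5p, was at 22141 ± 1570 CPM in LV-NC, 23471 ± 2322 CPM after H/R and 29792 ± 3408 CPM after H/R with BMAL1. It was the most abundant of these relatives, at 1.20 with TMM (adjusted p 0.0669 in edgeR's test). With total UMIs it was called higher at 0.34 (adjusted p 0.0342 in edgeR's test), as were 2.26% of all miRNAs. miR-25-3p carries the seed of miR-92a-3p and was at 12781 ± 1068, 14083 ± 2144 and 15757 ± 113 CPM in the same order. Its log2 fold change with BMAL1 was 0.98 with TMM and 0.16 with total UMIs, against 0.32 and -0.57 for miR-92a-3p. The difference between them was not tested. The minor arms miR-93-3p and miR-25-5p were called lower with total UMIs (-0.81 and -0.76, adjusted p 0.0295 and 0.0181 in edgeR's test), as were 28.6% of all miRNAs. They were at 0.08 and 0.13 with TMM.

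The 10 listed arms of the miR-106a-363 cluster on chromosome X, which leave out its copies of miR-19b-3p and miR-92a-3p, were scarce. Of these arms 6 were tested and 0 were called with TMM in any comparison. Their median log2 fold change with BMAL1 was -0.38 with TMM and -1.29 with total UMIs. With total UMIs 3 of them were called lower, miR-19b-2-5p (-1.99), miR-92a-2-5p (-1.65) and miR-363-5p (-1.38), on a scale where 28.6% of all miRNAs were called lower. miR-19b-2-5p was at 20.0 ± 3.55, 35.0 ± 22.1 and 8.62 ± 2.79 CPM in LV-NC, after H/R and after H/R with BMAL1. The remaining miRNAs with the miR-92a seed, miR-32-5p and miR-92b-3p, were both tested and neither was called, with log2 fold changes with BMAL1 of 0.44 and 0.25 with TMM and -0.46 and -0.67 with total UMIs. miR-92b-3p, the more abundant of these, was at 139 ± 20.7, 135 ± 17.2 and 84.8 ± 15.8 CPM.

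**Figure D5:**
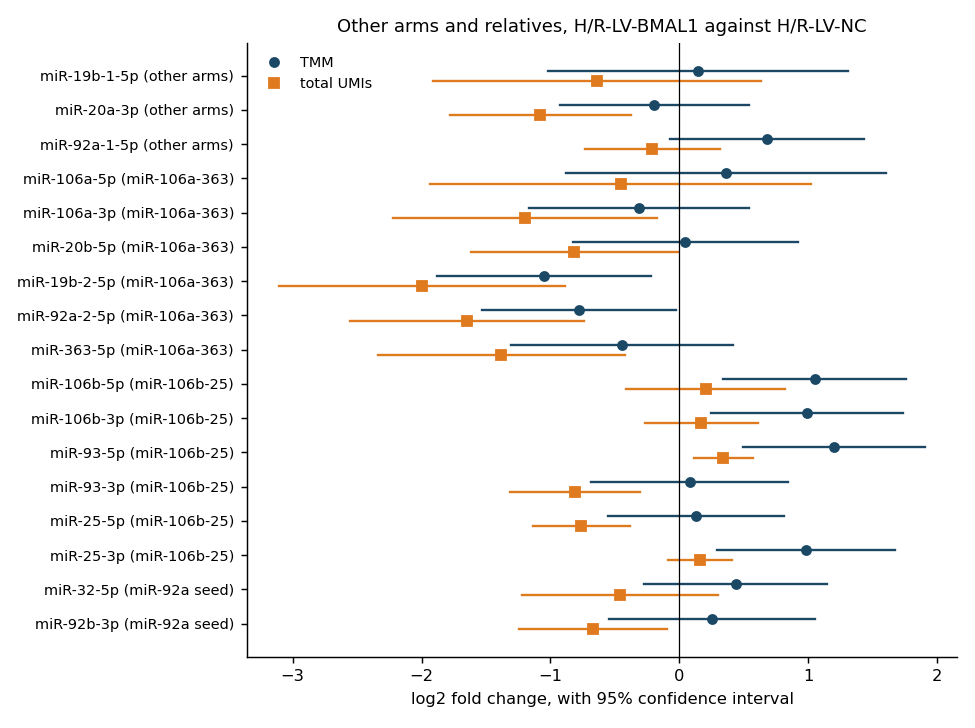
Log2 fold change of BMAL1 against the control virus, both after H/R, for the other arms of the cluster and the related miRNAs that passed the filter, with TMM (circles) and total UMIs (squares) and 95% confidence intervals. miR-93-5p has the largest estimate with TMM, 1.20, and the chromosome X arm miR-19b-2-5p the smallest, -1.05.

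Across the 9 libraries the members other than miR-92a-3p varied together on the TMM scale, with Pearson's r of 0.72 to 0.99 over their 21 pairs (median 0.89), whereas the 7 pairs with miR-92a-3p had 0.31 to 0.79 (median 0.64). With total UMIs these ranges were -0.36 to 0.87 (median 0.18) and -0.78 to 0.69 (median -0.14). Pairs of other miRNAs were not compared. These scales differ by the library factors, by a prior count of 2 added with TMM only, and by library totals taken after the filter with TMM. The points share their libraries. Among 687 other miRNAs with a mean of at least 50 UMIs, those whose TMM-scaled level was most like the summed level of the members over the 9 libraries were miR-125a-3p (r = 0.986), miR-125b-5p (r = 0.982) and miR-125b-1-3p (r = 0.961), which lie on chromosomes 17, 16 and 9. Since miR-92a-3p made up most of the members' UMIs in each group, that sum is mostly a measure of miR-92a-3p. Both the sum and the other miRNAs were scaled by the same TMM factors. The likeness with total UMIs was not examined, and the part of the shared factors in it was not tested.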

How the data were processed

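The authors sequenced small RNA from exosomes of TCMK-1 cells with a UMI library kit in 3 groups of 3 libraries, which were assigned from the labels. The deposited table gives UMI counts per mature miRNA, which were analysed here, and the deposited CPM are those counts scaled to the library total. The submitters' processing notes list Bowtie 1.3.0, edgeR and cutadapt 2.7 without roles. The genome build used for mapping was not given in the sources used here, and the positions deposited for the members match those of RefSeq on GRCm38.p6. All count columns were assigned, and 0 were left unused.

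R 4.3.3 with limma 3.58.1 and edgeR 4.0.16 served for the tests. filterByExpr kept 1682 of 1978 miRNAs and removed 296. Libraries were scaled by TMM, 1 quasi-likelihood fit took all 9 libraries with a mean for each group, and a miRNA was called at a Benjamini-Hochberg adjusted p under 0.05 over all miRNAs tested. Ratios within a library used log2 values with 0.5 UMI added and exact permutation tests. Correlations on the TMM scale used log2 CPM with a prior count of 2 for single miRNAs. The summed members and the values with total UMIs had no prior count. Alternatives were other scalings, filters, DESeq2 1.42.0, limma-voom, only the groups compared, a block for the replicate number, each library left out and 1 UMI added in ratios. After seeing the data, the block and the left-out libraries were also run with total UMIs. The fits were tested on simulated counts with known changes. Figures were drawn with matplotlib 3.10.9, and the ratios came from scipy 1.17.1, numpy 2.4.6 and pandas 2.3.3 on Python 3.11.15.

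The members, the lists of relatives and markers, and the tests were chosen with earlier results of these data known. All members are named, along with relatives that were called or had the highest mean of their list (and, chosen after their values were seen, miR-19a-5p, miR-25-3p and miR-32-5p), and the 3 miRNAs most like the summed members. Of the kidney tubule list 9 of 11 were tested and 3 were called higher with BMAL1 under H/R (2.14% of all miRNAs were). Those 3 were all miR-30 arms. Among the rest, miR-192-5p, miR-194-5p and miR-200a-3p had TMM log2 fold changes above 0 (1.24, 1.11 and 0.72). Those of miR-204-5p, miR-200c-3p and miR-429-3p were below 0 (-0.11, -0.21 and -0.50). None (0) of the blood cell, liver, muscle and neuron lists were called with TMM, and 2 blood cell markers were called lower with BMAL1 under H/R with total UMIs (28.6% of all miRNAs were). Libraries within a group differed by more than sampling noise (chi-square per degree of freedom 8.76 to 149), so none was taken for a copy. At 807158 UMIs in the shallowest library, 1 UMI is worth 1.24 CPM.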

Additional observations from a re-analysis of the deposited data

How the results depend on the processing

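With TMM the BMAL1 comparison under H/R called 1 member and 40 miRNAs (36 higher, 4 lower). It called 2 members and 519 miRNAs (38 higher, 481 lower) with total UMIs, 0 and 0 with RLE, upper quartiles, no filter or only the groups compared, 2 and 72 (43 higher, 29 lower) when the mean had to reach 50 UMIs, 5 and 240 with DESeq2, and 2 and 58 with limma-voom. With a library left out it called 0 to 5 members and 0 to 139 miRNAs. The 5 members and 139 miRNAs came without H/R-LV-BMAL1 1, and each other omission gave 0. BMAL1 with H/R against LV-NC called 0 members and 4 miRNAs, but 1 and 105 (28 higher, 77 lower) with total UMIs, 1 and 145 with DESeq2, 2 miRNAs with upper quartiles or no filter, 10 when the mean had to reach 50 UMIs and 1 with only the groups compared. With a library left out it called 0 to 1 members and 0 to 66 miRNAs, most without H/R-LV-BMAL1 1. H/R alone called 0 members throughout, and 1 miRNA with total UMIs, 2 with DESeq2 and 0 to 1 with a library left out.

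Leaving out libraries with total UMIs was chosen after seeing the data. The BMAL1 comparison then called 0 to 2 members and 6 to 688 miRNAs, namely 6 and 22 when H/R-LV-BMAL1 2 or its replicate 3 was left out, and 114 when H/R-LV-NC 2 was left out, each with 0 members. BMAL1 with H/R against LV-NC called 0 to 1 members and 2 to 145 miRNAs (2 without H/R-LV-BMAL1 2), and H/R alone 0 members and 1 to 2 miRNAs. miR-92a-3p stayed below 0 in the BMAL1 comparison (-0.70 to -0.46) and against LV-NC (-0.83 to -0.63). Signs turned for miR-17-3p (-0.095 to 0.17), miR-18a-3p (-0.058 to 0.19) and miR-19a-3p (-0.20 to 0.071) under H/R, and for miR-18a-5p (-0.032 to 0.25) against LV-NC.

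Between TMM and total UMIs the signs turned for miR-17-3p (0.018), miR-18a-3p (0.054) and miR-19b-3p (0.24) under H/R, for miR-17-3p (-0.20), miR-18a-3p (-0.30) and miR-92a-3p (-0.57) in the BMAL1 comparison, and for miR-17-5p (-0.22), miR-17-3p (-0.19) and miR-18a-3p (-0.25) against LV-NC. When the mean had to reach 50 UMIs, miR-19b-3p was at 0.064 under H/R. With a library left out and TMM, miR-19b-3p ran from -0.22 to 0.18 under H/R, and miR-92a-3p from -0.054 to 0.59 in the BMAL1 comparison and from -0.53 to 0.089 against LV-NC. Log2 ratio differences ran from -0.15 to 0.15 for miR-17-5p to miR-17-3p (BMAL1 with H/R against LV-NC), from -0.19 to 0.0092 for miR-19a-3p to miR-19b-3p (BMAL1 comparison) and from -0.13 to 0.11 for miR-92a-3p to the other 7 members (H/R alone). The other ratio differences kept their sign, and adding 1 UMI turned none. The cause of these changes was not tested.

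Libraries with the same replicate number did not deviate together (correlations of -0.16 to 0.13), so the numbers were not taken as pairs. With the replicate block and TMM, the BMAL1 comparison called 0 members and 0 miRNAs, BMAL1 with H/R against LV-NC 0 and 3, and H/R alone 0 and 0. With the replicate block and total UMIs, chosen after seeing the data, these counts were 2 and 268, 0 and 29, and 0 and 0.

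With 3 libraries a group an exact test cannot go below 0.1. The deeper sequencing of the BMAL1 libraries cannot be told apart from the group. miR-18a-3p had the fewest UMIs of the members, 38 to 170.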
